A study of Drosophila melanogaster with 2 samples.

Results

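The histone variant genes described here are the 6 Drosophila melanogaster genes His2Av, His3.3A, His3.3B, His4r, cid and BigH1, which lie outside the histone gene cluster. They were taken by gene name from the Ensembl annotation, where they are 6 of 13968 protein coding genes on the main chromosome arms. The data are from chromatin immunoprecipitation followed by sequencing (ChIP-seq) of fu2-GFP, the product of a transgenic fly line that stably carries fu2 with GFP at its C-terminal end and whose insertion is labelled as targeting prg, the gene of which fu2 is a synonym. Whole embryos of 0 to 24 h and mixed sex were used, so a listed region can come from any tissue or stage in that span, and the antibody was against GFP. There were 2 biological replicates of this 1 group, numbered 2 and 3, and no condition, unfused GFP or other control sample was analysed here. The labels give sonicated fragments of 200 to 800 bp. On the dm6 build 4 region lists were read for every gene: the peaks that passed the authors' irreproducible discovery rate (IDR) step, the pooled list called on both replicates, and the list of each replicate.

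Most histone genes of the fly sit in the repeated cluster and are expressed during DNA replication. The variant genes are single copies elsewhere in the genome, and their proteins can be placed in chromatin outside replication or at particular sites. His2Av encodes the only H2A-class variant of the fly, which serves in transcription and in the response to DNA breaks. His3.3A and His3.3B both encode the replacement histone H3.3, and His4r encodes a replacement H4. The cid gene encodes the histone that marks the centromere, the fly counterpart of CENP-A, and BigH1 encodes the linker histone of the early embryo and germ line.

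A peak that passed IDR lay at 2 of the 6 genes, His2Av and His3.3B, and both peaks were at a promoter. In the pooled list His4r had the next strongest region, below the IDR threshold, and His3.3A, cid and BigH1 had weaker ones. In both replicate lists the strongest region of His3.3A ranked above that of His4r. The DNA at these places is printed in lower case on dm6, 5′ to 3′, with capitals for the words that were found in it. For His2Av the lines are the first intron of the divergent gene ball, which holds the summit of the peak (chr3R:26866656-26866775, plus strand), and the 121 bases between the starts of ball and His2Av (chr3R:26866808-26866928, plus strand). For His3.3B it is 50 bp on either side of the summit, in the first intron (chrX:9156386-9156486, minus strand).
His2Av, ball intron: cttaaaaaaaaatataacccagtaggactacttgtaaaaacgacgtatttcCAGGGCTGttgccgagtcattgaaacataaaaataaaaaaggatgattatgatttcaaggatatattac
His2Av, between the starts: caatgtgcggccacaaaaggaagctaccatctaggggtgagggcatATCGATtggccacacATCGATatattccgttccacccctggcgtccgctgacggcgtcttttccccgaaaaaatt
His3.3B, summit: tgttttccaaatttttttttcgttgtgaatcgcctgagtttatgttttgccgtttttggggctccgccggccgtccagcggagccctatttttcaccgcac

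Of the genes without an IDR peak, 2 are shown for comparison. For His4r the line is the 51 bases between the starts of put and His4r, beside the summit of its strongest region (chr3R:14625704-14625754, plus strand). For His3.3A it is the intron that holds the summit of the strongest pooled region (chr2L:5055541-5055630, plus strand).
His4r, between the starts: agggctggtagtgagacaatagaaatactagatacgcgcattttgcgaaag
His3.3A, intron: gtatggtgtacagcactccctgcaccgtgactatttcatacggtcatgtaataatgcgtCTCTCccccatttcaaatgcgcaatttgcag

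The capitals in the ball intron, CAGGGCTG, are the reverse complement of the word CAGCCCTG. The capitals between ball and His2Av are both ATCGAT, the core of the DNA replication-related element (DRE) of fly housekeeping promoters. In the His3.3A intron CTCTC is the reverse complement of GAGAG, the repeat bound by GAGA factor.

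In the pooled list the signal value, the authors' own measure of enrichment, ran up to 1729 over 30000 regions. The 3033 IDR peaks are the 3033 pooled regions of highest signal, the lowest of them at 62.52. Read counts are not part of the lists, and the depth is therefore unknown. The lists were called separately and their signal values have no common scale, so they are set side by side by rank, where rank 1 is the strongest region. By the name the authors gave them, the pooled and replicate lists hold peaks and background, so a region in them need not be a bound site. The pooled list and each replicate list hold 30000 regions, and whether they were limited to that number is not stated. A weak region absent from a list may therefore have fallen below its end.

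Within 2 kb of the 6 gene bodies lay 2 IDR peaks, 28 pooled regions, 22 regions of replicate 2 and 28 of replicate 3. His2Av and His3.3B, 2 of the 6, had an IDR peak within 2 kb, against 30.6% of all protein coding genes. The same 2 genes had an IDR summit within 500 bp of a transcript start, against 17.5% of all. With 6 genes, 1 gene more or less moves the members' share by more than it differs from these backgrounds, so nothing is read from it. Any pooled region within 2 kb was found for 6 of 6 genes (81.9% of all protein coding genes), and a pooled summit within 500 bp of a start for 5 of 6, all but BigH1 (55.7% of all). A region within 2 kb in both replicate lists was found for the same 5 genes (75.3% of all), and so was a summit within 500 bp of a start in both replicate lists (43.8% of all). The members are short genes, from 860 to 4147 bases. Among the 7848 protein coding genes of that length range, 28.6% had an IDR peak within 2 kb and 17.2% an IDR promoter summit, a comparison added after the data were seen.

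**Figure D1:**
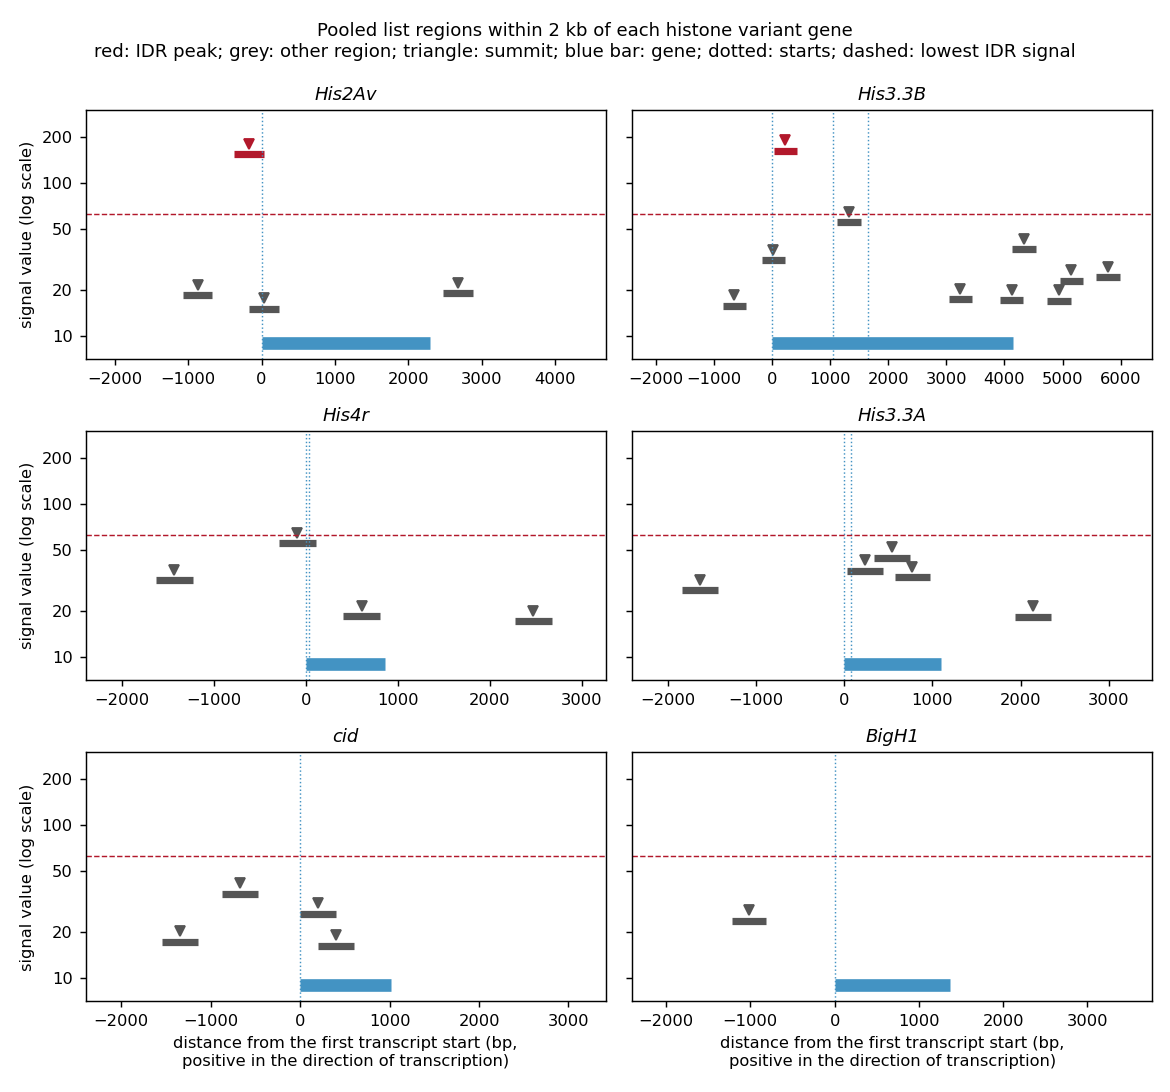
Pooled regions within 2 kb of each of the 6 genes, by distance from the first transcript start (bp, positive in the direction of transcription) and by signal value (log scale); bars are the regions at their signal value, triangles drawn above them mark the summit position, the blue bar the gene and dotted lines its starts. The 2 IDR peaks (red) are over the start of His2Av (155.5) and just downstream of the first start of His3.3B (163.4). The regions at His4r (55.45) and farther inside His3.3B (55.29) come closest to the lowest IDR signal of 62.52 (dashed).

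The median signal of the strongest pooled region was 49.98 over the 6 genes and 34.77 over all protein coding genes, with genes without a region counted as 0. This median rests on genes that differ widely, from 163.4 at His3.3B to 23.64 at BigH1. In order, the strongest pooled regions were those of His3.3B (163.4), His2Av (155.5), His4r (55.45), His3.3A (44.51), cid (35.64) and BigH1 (23.64). Among all protein coding genes, 92.0% had a weaker strongest region than His3.3B or none, 91.2% than His2Av and 65.9% than His4r. The same share was 58.5% for His3.3A, 50.8% for cid and 35.2% for BigH1. These shares count the 18.1% of genes without a pooled region as weaker. By that rule cid was close to the middle of all genes and BigH1 below it. The order of His2Av and His3.3B is not fixed by the replicates, since replicate 2 ranked His2Av first and replicate 3 His3.3B. The order of His4r and His3.3A is not fixed either, since in both replicate lists the strongest region within 2 kb of His3.3A ranked above that of His4r. Both replicates placed cid below these 4 genes and BigH1 lowest or without a region.

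**Figure D2:**
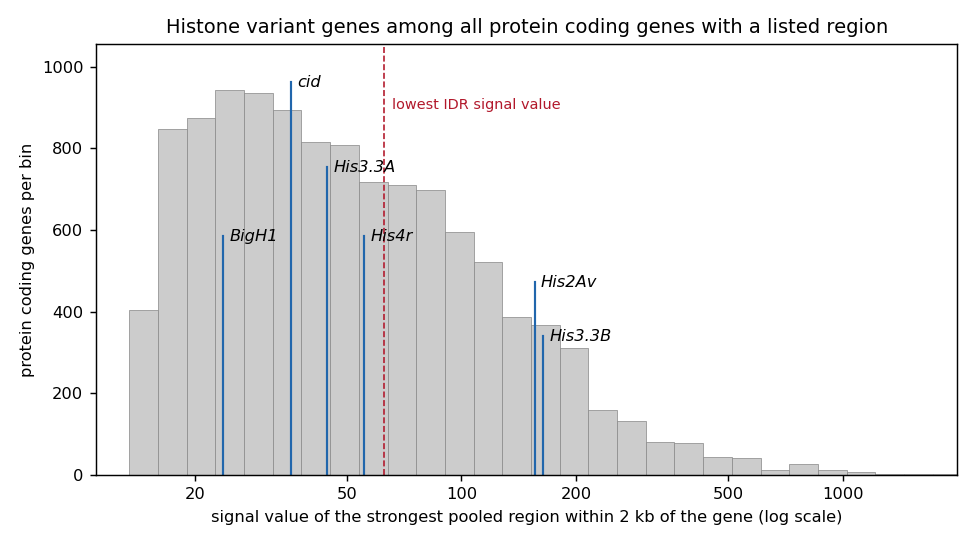
Protein coding genes counted by the signal value of their strongest pooled region within 2 kb (log scale), with the 6 histone variant genes marked; marker heights carry no value and genes without a region are left out. His2Av and His3.3B stand in the upper tail, and the other 4 genes are below the lowest IDR signal value (dashed line).

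His2Av (FBgn0001197, chr3R:26866929-26869220, plus strand, 2 transcripts from 1 start) had its IDR peak at chr3R:26866558-26866961, which covers the start of the gene. Its signal value was 155.5 in the pooled list (rank 657), 62.48 in replicate 2 (rank 580) and 97.23 in replicate 3 (rank 677). The replicate summits were 14 bp apart, and both replicates placed the peak well inside their strongest 3033 regions. The pooled summit, at position 26866760, lay 169 bp upstream of the His2Av start. It was closer to ball, a gene for a kinase that phosphorylates nucleosomal histone and that is transcribed in the other direction from a start 121 bases away. The summit was 47 bp downstream of the outer ball start, in the first ball intron, and 135 bp upstream of an inner ball start. The peak therefore cannot be assigned to His2Av rather than ball by position, and by nearest start it belongs to ball. The other 3 pooled regions near His2Av had signal values from 14.97 to 19.00, and of these none had a summit within 100 bp in both replicates.

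His3.3B (FBgn0004828, chrX:9152523-9156669, minus strand, 4 transcripts from 3 starts) had the strongest region of the 6 genes, an IDR peak at chrX:9156234-9156637. Its signal value was 163.4 in the pooled list (rank 594), 50.69 in replicate 2 (rank 873) and 112.4 in replicate 3 (rank 507). The replicate summits were 19 bp apart. The pooled summit, at position 9156436, lay 233 bp downstream of the outermost start, in the first intron, and no other gene starts within 500 bp of it. A summit downstream of the gene's own start is the less usual place in these data. Of the 2444 protein coding genes with an IDR promoter summit, 87.4% had the strongest one upstream of their own start and 62 (2.54%) had it more than 200 bp downstream. An upstream summit can still lie in a neighbouring gene, as at His2Av.

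His3.3B, at 4147 bases the longest of these genes and so the one with the widest window, also had the most pooled regions, 10. The second of them (chrX:9155137-9155540) had a signal value of 55.29 and rank 3593, with its summit 274 bp downstream of the middle start. The replicates ranked it far apart, 3125 in replicate 3 and 16772 in replicate 2. Another region, past the 3′ end, had a signal value of 36.91 with ranks of 14396 and 5638 in replicates 2 and 3. A region over the 5′ UTR, 28 bp after the outermost start, had 31.33 in the pooled list and rank 4827 in replicate 3, and none in replicate 2 had a summit within 100 bp. Only the IDR peak of His3.3B ranked among the strongest 3033 regions of both replicates.

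His4r (FBgn0013981, chr3R:14625755-14626614, plus strand, 4 transcripts from 2 starts) came closest to the IDR threshold among the other 4 genes in the pooled list, though not in either replicate list, where His3.3A ranked higher. Its strongest region, chr3R:14625457-14625860, had a signal value of 55.45 in the pooled list (rank 3575), 21.80 in replicate 2 (rank 3588) and 30.39 in replicate 3 (rank 4642). The pooled rank is 542 places below the last IDR peak, although the −log10 q of the region, 3.95, was the highest value in the list and the same as at the IDR peaks of His2Av and His3.3B. The replicate summits were 3 bp apart, the closest of any strongest region here. The pooled summit lay 96 bp upstream of His4r and 44 bp inside the 5′ UTR of put, the type II receptor of the activin and BMP pathways, which starts 51 bases away in the other direction. As at His2Av, the nearest start was that of the divergent neighbour.

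His3.3A (FBgn0014857, chr2L:5055058-5056149, plus strand, 3 transcripts from 2 starts) encodes the same protein as His3.3B and had no IDR peak within 2 kb. Its 3 regions inside the gene had pooled signal values of 44.51 (rank 4901), 36.56 (rank 6572) and 33.14 (rank 7550). Their summits lay 464, 161 and 696 bp downstream of the second start, in the intron, a coding exon and the 3′ UTR. The replicates placed the strongest signal at different ends of the gene. Replicate 2 had its strongest region 166 bp after the second start, with signal value 23.38 and rank 3189, where replicate 3 had 14.71 and rank 15346. Replicate 3 had its strongest region 655 bp after that start, with signal value 34.53 and rank 3816, and no summit of replicate 2 lay within 100 bp of the pooled summit there. The strongest pooled summit, between these 2 places, was matched within 100 bp in neither replicate.

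Wider windows around His3.3A reach IDR peaks of other genes, named here after their values were seen. A peak of signal value 199.3 (rank 372), with its summit 281 bp downstream of the start of eIF3h, a translation initiation factor gene, lies 2497 bp from His3.3A. Peaks of 73.87 at eIF3h and 70.07 at Rpn11, a proteasome gene, lie 2210 and 3505 bp away. None of these summits was nearest to a start of His3.3A.

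**Figure D3:**
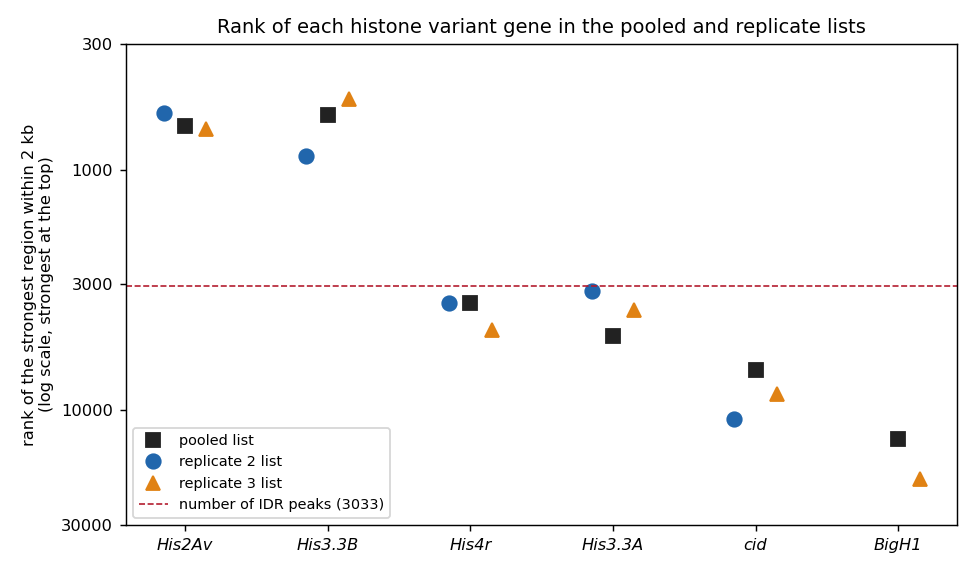
Rank of the strongest region within 2 kb of each gene in the pooled list and in each replicate list (log scale, strongest at the top). His2Av and His3.3B rank between 507 and 873 in all 3 lists, above the line at 3033, and the other 4 genes rank below it in every list, with none for BigH1 in replicate 2.

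The 2 replacement H3 genes can be compared with each other and with the clustered copies in their coding sequence. Over 408 coding bases His3.3A and His3.3B differ at 57 positions and at 0 of 136 residues, and their longest shared run is 41 bases. Against the 23 His3 copies of the cluster, His3.3A differs at 80 to 81 bases, His3.3B at 88 to 89, and each at 4 residues. His4r differs from the 22 His4 copies of the cluster at 50 to 51 of 309 bases and at 0 to 1 of 103 residues. The longest run shared with any clustered copy is 17 bases for each of the 3 genes. The IDR peak of His3.3B and the strongest region of His4r have their summits outside the coding sequence. At His3.3A the 161 bp summit is in coding sequence, and whether reads of the copies were mixed there was not tested.

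The centromere histone gene cid (FBgn0040477, chr2R:13485617-13486631, plus strand, 1 transcript) had no IDR peak within 2 kb or 5 kb. Its strongest region had a signal value of 35.64 in the pooled list (rank 6819), 11.94 in replicate 2 (rank 10909) and 20.89 in replicate 3 (rank 8525). The summit lay in a coding exon of the divergent gene cbc, 451 bp downstream of the cbc start and 677 bp upstream of cid. A second region with its summit in the coding exon of cid, 200 bp downstream of the start, had a signal value of 26.34 (rank 11042) in the pooled list. The strongest cid region was thus at 22.7% of the way down the pooled list, 36.4% in replicate 2 and 28.4% in replicate 3. Its replicate summits were 71 bp apart, farther than those of the strongest regions of His2Av, His3.3B and His4r.

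BigH1 (FBgn0038252, chr3R:14663450-14664822, plus strand, 1 transcript) had the weakest entry. A single pooled region within 2 kb had a signal value of 23.64 (rank 13204), and its summit was in a coding exon of Rad17, a DNA damage checkpoint gene, 1015 bp upstream of BigH1. The region was in replicate 3 at rank 19264 with signal value 12.84, and replicate 2 had none among its 30000 listed regions. No pooled or replicate region touched the BigH1 gene body or came within 500 bp of it.

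A divergent promoter was common to most of these genes. A protein coding gene on the other strand starts within 500 bp before 5 of the 6 (24.9% of all protein coding genes): ball before His2Av, CG14036 before His3.3A, put before His4r, cbc before cid and Rad17 before BigH1. The distances between the starts were 41 bases at His3.3A, 51 at His4r, 121 at His2Av, 225 at cid and 252 at BigH1. His3.3B is the exception, with Ost48 260 bp away but no divergent start within 500 bp. Over all protein coding genes, 36.3% of the 3481 with a divergent partner had an IDR promoter summit against 11.3% of the 10487 without. Under this rule a summit near both starts of a divergent pair counts for both genes, as at ball and His2Av. The shares are therefore not counted alike, and nothing is read from their difference. Of the 5 members with a partner only His2Av had an IDR promoter summit, and His3.3B, with no partner, also had one.

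The 28 pooled regions near the 6 genes recurred in the replicates about as often as other regions. A summit within 100 bp in both replicate lists was found for 10 of them (35.7%), against 33.5% of all 30000 pooled regions. Among IDR peaks the share was 95.2%, and both member IDR peaks were matched. The IDR list derives from the pooled and replicate lists, so that share follows in part from how its peaks were chosen. Among regions that are not IDR peaks, the share was 30.8% of the 26 near the members and 26.6% of all 26967 in the pooled list. Of the 10 matched regions, 4 were at His3.3B, 2 each at His4r and cid and 1 each at His2Av and His3.3A.

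By their ranks in the 3 lists, the protein coding genes with the most similar IDR promoter summit to that of His2Av were Atg2 and CG12093, which share a peak of signal value 156.1 (ranks 653, 602 and 678 in the pooled list and replicates 2 and 3), and CG5815 (156.6). The sum of the absolute log2 rank ratios over the 3 lists was 0.0647 for Atg2 and CG12093 and 0.129 for CG5815. For His3.3B they were CG14610 and CG2656, again at a shared peak (165.4, sum 0.111), and Girdin (168.6, sum 0.225). Likeness in rank is a description of 3 lists from 2 replicates.

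Base composition around the summit differed among the 6 genes. In the 101 bases centred on the strongest pooled summit, GC content was 38.6% at His2Av, close to the IDR median of 36.6%. It was 48.5% at His3.3B, 51.5% at His3.3A and at His4r, 57.4% at cid and 45.5% at BigH1, all nearer to or above the median of 45.5% for pooled regions without an IDR peak. Between the starts of ball and His2Av it was 52.9%, where the median of the same length upstream of all protein coding genes was 39.7%. Between put and His4r it was 43.1%, equal to the median.

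The summit windows and whole regions were searched on both strands for 11 words: TATCGATA (the full DRE), its core ATCGAT, CAACACTG, CAGCCCTG and CAACCCTG (words that earlier work on these peaks had brought up), GGTCACAC (the core of motif 1, bound by M1BP), TATAAA (the TATA box core), GAGAG, ATTTGCAT (the octamer) and the E2F sites TTTCGCGC and TTTGGCGC. ATCGAT lies within TATCGATA, and no other word contains another. In the 101 bases at the summits, which hold these words in 0.363% to 15.6% of IDR peaks, the only match was GAGAG at His3.3A, where 10.1% of IDR peaks and 12.9% of pooled regions without an IDR peak hold it. Over the whole 404 bp region, that of His2Av held ATCGAT at 2 places, 94 and 109 bp from the summit on the side of His2Av. It held CAACCCTG at 2 places, 120 and 155 bp from the summit on the side of ball, and CAGCCCTG once, 46 bp away on that side. At least 2 copies of ATCGAT were in 6.89% of IDR peak regions, at least 2 of CAACCCTG in 0.231%, and at least 1 of CAGCCCTG in 3.76%.

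The other members held fewer of these words. His4r had CAGCCCTG once, 44 bp from the summit, spanning the first base of put and the beginning of the stretch printed for it, and cid had it once, 80 bp from its summit; 1.03% of pooled regions without an IDR peak hold it. His3.3B, the strongest peak, held GAGAG alone, once, 103 bp from its summit (37.7% of IDR peaks and 41.9% of pooled regions without one hold it). BigH1 held ATCGAT and GAGAG once each in its weak region, the former in 13.8% of pooled regions without an IDR peak. Of stretches of the printed lengths directly upstream of all protein coding genes, ATCGAT was in 15.8% at 121 bases. CAGCCCTG was in 1.40% at 120 bases and GAGAG in 12.0% at 90 bases. The printed stretches of 120 and 90 bases are introns, for which sequence upstream of genes is not a matched background. A match is a word in the sequence, not a shown binding site.

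The genes that make, place or remodel histones were read in the same way, from lists chosen with earlier results of these data known. Of 17 histone chaperone genes, 6 (35.3%, exact 95% binomial interval 14.2% to 61.7%, over genes) had an IDR promoter summit, against 17.5% of all protein coding genes. The interval takes genes as independent, though neighbours such as Nlp and Nph share a region. It is no test, and nothing is read from the difference. The strongest of the 6 was at yem (188.2, rank 429), the partner of Hira in placing H3.3, followed by dre4 (111.5) of the FACT complex, Spt6 (108.8) and Dek (90.94). Hira itself, which places H3.3 outside replication, had 31.46 (rank 8184), below the IDR threshold. Also below it was cal1, which places cid at centromeres, with 31.33 (rank 8244). Neither region had a summit of replicate 2 within 100 bp. XNP, the fly ATRX gene that also serves H3.3, had an IDR summit at 65.37, close to the lowest IDR signal. As at His2Av, some of these peaks cannot be assigned to 1 gene by position: Ctl2 also starts within 500 bp of the yem summit, schlank of that of Spt6, and CG42488 and CG5116 of that of XNP.

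Of 16 genes of the Domino and Tip60 complex, which exchanges the His2Av protein into chromatin, 3 had an IDR promoter summit (18.8%): Gas41 (94.74), MrgBP (93.62) and rept (88.74). The dom gene, which encodes the ATPase, had 52.15 (rank 3937) and Tip60, the acetyltransferase, 48.31 (rank 4384), neither an IDR peak. Of 12 centromere and kinetochore genes, 2 had one (16.7%), Spc25 (118.0) and Cenp-C (87.79), the gene for a centromere protein that binds chromatin with cid. Both shares are near the background of 17.5%. Other genes also start within 500 bp of these summits: SA1 at Gas41, Ggamma1 at MrgBP, mRpL21 at rept, grsm at Spc25 and the non-coding asRNA:CR44291 at Cenp-C. The MrgBP peak had no summit of replicate 3 within 100 bp, and the dom region had none of replicate 2.

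The clustered histones gave no region at all. The 111 replication-dependent histone genes at chr2L:21416953-21541681 had 0 regions in any of the 4 lists. They lie in a single cluster, so no interval over genes is given. These genes are near-identical copies, and the sources used here do not say how reads that match several places were treated, so the lack of a listed region there cannot be told apart from unmapped copies. Of 7 histone locus body and histone mRNA processing genes, 2 had an IDR promoter summit (28.6%, exact 95% interval 3.67% to 71.0%). Over all protein coding genes the share was 17.5%, and with 7 genes nothing is read from the difference. The 2 genes were mxc (135.4, rank 848), the scaffold of the histone locus body, and Slbp (76.05, rank 2257), which binds the end of histone mRNA. Larp7 starts within 500 bp of the mxc summit and Rpn2 within 500 bp of that of Slbp, and the Slbp region ranked 5942 in replicate 2 and 1712 in replicate 3. Of 7 sperm chromatin genes, which replace histones in the male germ line, 0 had one (exact 95% interval up to 41.0%).

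**Figure D4:**
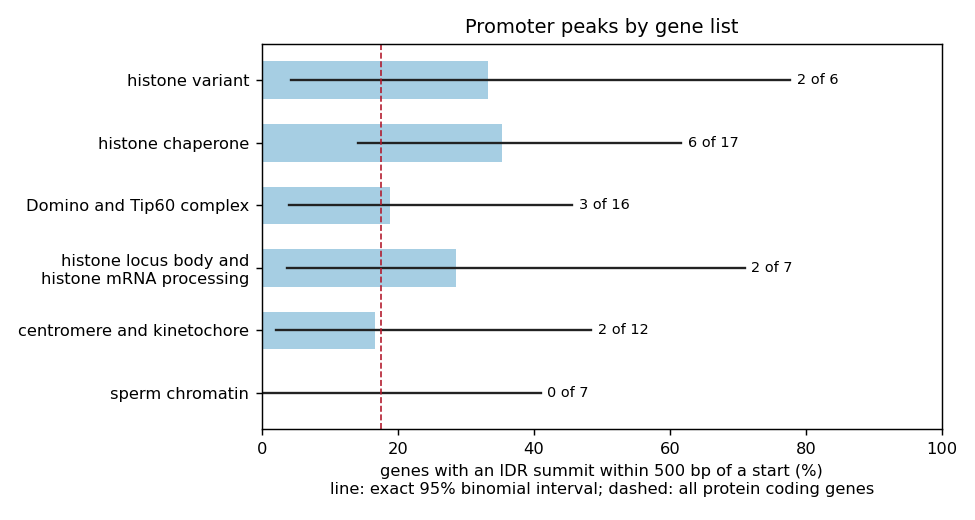
Share of each gene list with an IDR summit within 500 bp of a transcript start (%), with the exact 95% binomial interval over genes and, dashed, the 17.5% of all protein coding genes. The interval of every list shown includes the dashed line, the 2 of 6 histone variant genes among them. The intervals take genes as independent and are no test.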

How the data were processed

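ChIP-seq regions of fu2-GFP from whole embryos (2 biological replicates of 1 group) were read from 4 deposited narrowPeak lists on dm6, and the lists on dm3 were not used. The authors deposited a signal value, a −log10 of a q-value and a summit offset for each region. Per the file headers and manifests, the pooled list was called on both replicates and the IDR list derives from it and the replicate lists. The aligner, caller and IDR threshold are not given in the sources used here.

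Positions were converted to 1-based. Genes came from Ensembl release 115 (BDGP 6.54) and sequence from NCBI Release 6 of that assembly. The strongest region was the one of highest signal overlapping the gene body or 2 kb beside it, a promoter summit lay within 500 bp of a transcript start, and summits matched within 100 bp. Counts over members stand beside the same counts over all protein coding genes, without tests. The members, gene lists and words were chosen with earlier results of these data known. Named were the members, genes starting within 500 bp of their IDR peaks, up to 4 genes per list with the strongest IDR promoter summit and 3 genes of most similar rank. Neighbouring genes, XNP, Hira, cal1, dom, Tip60, eIF3h and Rpn11 were added for their position or role after their values were seen. Alternatives were other windows, distances, transcripts, the stronger part of the IDR list and each replicate alone. Python 3.11.15 with numpy 2.4.6, scipy 1.17.1 and matplotlib 3.10.9 was used. Overlap calls tested on simulated data equalled a direct search in 1000 of 1000 cases. Without read counts in the lists, the depth per sample and its precision are unknown. The sequence upstream of BigH1 is not reported here.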

Additional observations from a re-analysis of the deposited data

How the results depend on the processing

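With a promoter distance of 200 bp in place of 500 bp, 1 of the 6 genes had an IDR promoter summit in place of 2: His2Av kept its call at 169 bp, and His3.3B, at 233 bp, lost it. The counts of genes with an IDR peak within 2 kb (2), an IDR promoter summit (2) and a pooled region within 2 kb (6) stayed within 1.5 times under the other alternatives run: windows of 0, 0.5, 1 and 5 kb, the summit alone, 1000 bp, protein coding transcripts alone, the 1516 strongest IDR peaks, and the list of either replicate alone. For a replicate alone, its strongest regions by rank took the place of the IDR peaks, and both of those counts were 2. The count of genes with any listed region within 2 kb was 5 without replicate 3 and 6 without replicate 2. A window of 5 kb gave 3 genes with an IDR peak, the added one being His3.3A through the eIF3h and Rpn11 peaks, and moved its rank from 4901 to 372. That of BigH1 moved from 13204 to 6656. Requiring a region over the gene body or within 0.5 kb left 5 genes with a pooled region, without BigH1. No paired analysis was possible because the 2 replicates form 1 group. The unknown depth and the 2 replicates limit all ranks below the IDR threshold.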
